A study of Mus musculus with 30 samples.

Results

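The genes described here encode 27 subunits of the brain's ionotropic receptors for glutamate and of the GABA-A receptors, all matched by gene identifier among the 48709 genes counted. They comprise 4 AMPA receptor subunits (Gria1 to Gria4), 5 kainate receptor subunits (Grik1 to Grik5), 7 NMDA receptor subunits (Grin1, Grin2a to Grin2d, Grin3a and Grin3b), the delta receptor subunit Grid1, and 10 GABA-A receptor subunits (Gabra2 to Gabra6, Gabrb1, Gabrb2, Gabrg1, Gabrg3 and Gabrd). They were chosen as a list of gene names with no threshold on any value, and the list was drawn up with earlier results of these data known. The study took RNA from 5 tissues of adult mice (strain C57BL/6), namely spleen, muscle, liver, kidney and brain, with 3 libraries of each of 2 genotypes in every tissue. One genotype was wild type (WT) and the other carried a single working copy of Ctcf in all tissues (Ctcf+/-, called Het below), which encodes a DNA-binding zinc finger factor at the base of chromatin loops. The labels give the brain samples no region and the mice no sex. They give 3 mice per genotype, and whether a number marks the same mouse in every tissue is not stated.

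AMPA, kainate and NMDA receptors are tetramers that pass cations when glutamate binds, and they carry most of the fast excitation in the brain. Their subunit make-up sets how fast they open, what they pass and how they are anchored: Gria2 makes AMPA receptors nearly impermeable to calcium, Grin1 is the subunit that every NMDA receptor needs, and the Grin2 subunits determine its kinetics. GABA-A receptors are pentameric chloride channels, built mostly from alpha, beta and gamma subunits, with Gabrd replacing the gamma subunit in receptors outside the synapse.

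Levels below are RPKM, counts per kilobase of the deposited exon length per 1000000 counts, with library sizes scaled within each tissue. Library totals lay between 49.8 M and 132 M counts in the 30 libraries, so a count of 3, taken as the smallest count that is told from 0, was worth 0.0229 to 0.0606 CPM (counts per 1000000). Ctcf itself was 68.8 ± 2.68 CPM in WT brain and 42.7 ± 1.74 in Het brain (SD, n = 3), or 62.1% of WT, and the difference passed edgeR's quasi-likelihood test (adjusted p = 0.0259). In the 5 tissues Ctcf was at 61.4% to 67.2% of WT, with no overlap between the genotypes in any, but outside brain its difference did not pass (adjusted p = 0.914 in spleen, 0.25 in muscle, 0.543 in liver and 0.107 in kidney, edgeR). Summed markers of neurons were 973 to 1120 RPKM in the brain libraries, and those of astrocytes and oligodendrocytes were present in all 6. RNA of whole tissue cannot tell fewer cells of a type from less RNA per cell.

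Several of the GABA-A subunit genes are neighbours (GRCm38). Gabrg1, Gabra2, Gabra4 and Gabrb1 follow one another on chromosome 5, with 115 kb between Gabrg1 and Gabra2 and 474 kb between Gabra2 and Gabra4. Gabra4 (minus strand, 71569749 to 71658308) and Gabrb1 (plus strand, 71658113 to 72149037) start head to head and share 46 exon bases. Gabra6 (42306437 to 42321072) and Gabrb2 (42419757 to 42629028) are 98.7 kb apart on chromosome 11, and Gabra5 and Gabrg3 are 20.5 kb apart on chromosome 7.

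RefSeq's promoter table (GRCm38.p6) held 23 start sites of 19 of the 27 genes. The 250 bases before the start are printed for 4 genes, chosen after their values were seen to show different levels across tissues: Grik5, one of the members found in all 5 tissues, Gabra3, the next in kidney and liver, Grin1, which was abundant in brain and nearly absent elsewhere, and Gabra6, which was near 0 everywhere. Capitals mark CG dinucleotides. Grik5 is at chr7:25072370-25072619, Gabra3 (the start site farther upstream) at chrX:72656920-72657169, Grin1 at chr2:25319188-25319437 and Gabra6 at chr11:42321073-42321322, all on the minus strand.
Grik5: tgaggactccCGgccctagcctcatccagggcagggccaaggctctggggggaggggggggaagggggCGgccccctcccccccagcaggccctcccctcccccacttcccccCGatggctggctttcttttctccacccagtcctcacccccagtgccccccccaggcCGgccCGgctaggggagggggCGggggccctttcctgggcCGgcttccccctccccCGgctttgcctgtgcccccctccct
Gabra3: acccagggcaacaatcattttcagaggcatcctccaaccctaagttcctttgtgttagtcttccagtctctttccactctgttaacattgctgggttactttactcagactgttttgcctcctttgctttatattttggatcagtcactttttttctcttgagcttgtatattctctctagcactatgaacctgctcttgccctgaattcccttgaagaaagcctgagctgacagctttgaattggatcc
Grin1: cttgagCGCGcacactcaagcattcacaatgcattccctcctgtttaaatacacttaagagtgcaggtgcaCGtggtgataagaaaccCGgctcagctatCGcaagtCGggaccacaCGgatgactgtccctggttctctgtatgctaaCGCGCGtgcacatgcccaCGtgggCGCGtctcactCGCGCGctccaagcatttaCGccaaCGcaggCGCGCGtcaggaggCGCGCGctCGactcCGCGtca
Gabra6: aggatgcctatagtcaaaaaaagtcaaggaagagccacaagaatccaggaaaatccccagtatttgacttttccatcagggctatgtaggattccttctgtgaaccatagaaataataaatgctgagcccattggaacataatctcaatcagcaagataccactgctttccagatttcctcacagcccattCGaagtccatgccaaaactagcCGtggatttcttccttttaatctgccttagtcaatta
The 4 stretches held 8, 0, 27 and 2 CG dinucleotides, in that order. Over whole windows of 300 bases (250 before to 50 after the start) the 23 member promoters had a median of 12 CG dinucleotides and 59.0% G and C, and all 32851 promoters of that length a median of 7 and 52.7%. A core of the CTCF motif (the letters CCANNAG followed by NNGGC, on either strand) was in 0 of the 23 and in 2.43% of all promoters. The left part of the RE1 element, TTCAGCACC, was in 0 of the 23 and in 0.371% of all, also on either strand. The TATA box letters TATAAA, on either strand, were in 4 of the 23 (Grin3b, Gabrb2 and both Gabra3 windows) and in 13.6% of all. The Gabra3 windows overlap and hold the same site, which reads TTTATA on the printed strand. The matches began 30 bases before the start in Gabrb2, 164 in Grin3b, and 235 and 123 in the Gabra3 windows. The 3 motifs do not contain one another, and neither a match nor its absence in these windows says whether a factor binds.

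In WT brain the subunits spanned from 76.4 ± 0.761 RPKM for Gria1 to 0.0878 ± 0.0618 for Gabra6 (SD, n = 3). Next after Gria1 came Grik5 at 42.4 ± 7.38, Gabra3 at 36.8 ± 6.47, Grin1 at 32.1 ± 1.96 and Gabrd at 27.1 ± 2.06 RPKM. Of the 26 pairs of neighbours in this order, 20 had ranges over the 3 WT libraries that overlapped, so most adjacent ranks are not told apart. Gria1 stood clear of Grik5, and Grin1 clear of Gabrd. All 27 genes had more than 3 counts in each of the 6 brain libraries, Gabra6 by a small margin with 5 to 19 counts.

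**Figure D1:**
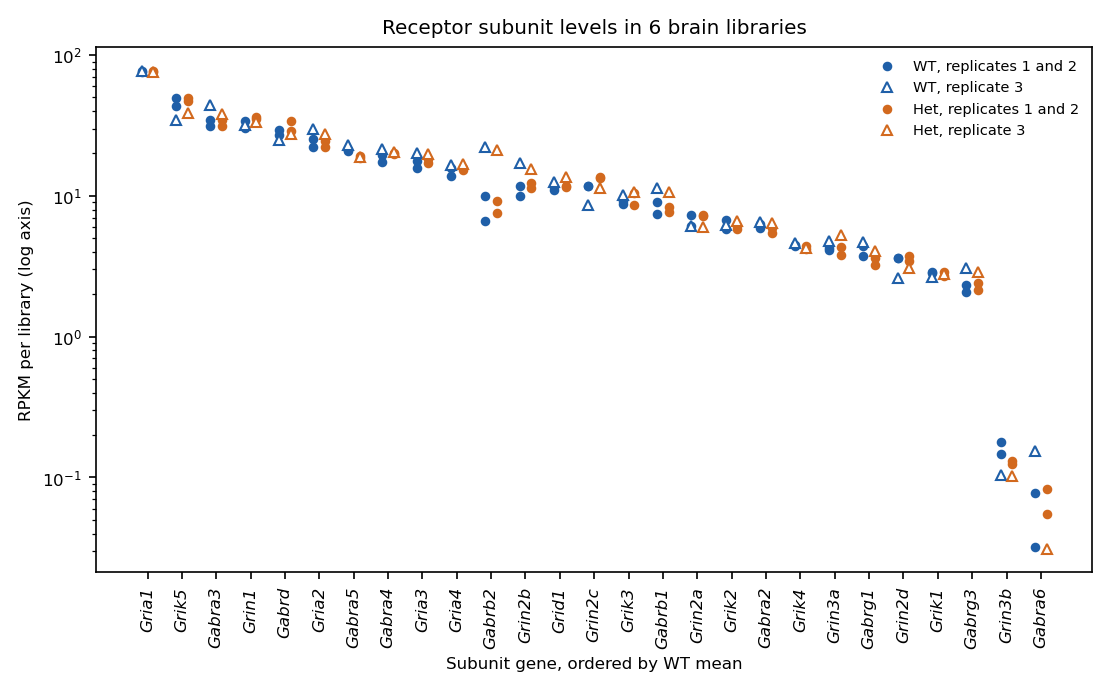
RPKM of each subunit gene (log axis) in the 3 WT and 3 Het brain libraries, with genes in the order of their WT mean and replicate 3 drawn as open triangles. Gria1 is at 75.6 to 77.2 in all 6 libraries, Gabrb2 is higher in both libraries numbered 3, and Grin3b and Gabra6 lie far below the rest.

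The 4 AMPA subunits summed to 136 ± 7.99 RPKM in WT brain. Gria1, whose C-terminal tail is long and which is inserted at synapses during potentiation, was 75.6, 76.5 and 77.2 RPKM in the WT libraries and 76.9, 76.4 and 76.3 in the Het libraries, the smallest spread of the 27 genes. Gria2, the subunit that blocks calcium entry after RNA editing, was 25.4, 22.1 and 29.8 in WT and 22.3, 24.6 and 27.6 in Het. In both genotypes Gria2 was highest in replicate 3. Gria3 and Gria4, both also calcium-permeable when they assemble without Gria2, followed at 17.9 ± 2.33 and 15.5 ± 1.45. Gria1 thus held 56.5% of the AMPA sum per length and Gria2 18.9%, but these shares rest on the deposited length, which adds up the exons of all transcripts: 15548 bases for Gria2 against 10371 for 1 coding transcript. Without dividing by length Gria1 held 40.8% and Gria2 35.1% of the AMPA counts, and with the length of 1 coding transcript 48.6% and 21.8%. Gria1 came first under all 3 scales.

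Of the 5 kainate subunits, Grik5 led with 64.6% of their sum (54.6% of counts, 70.4% by the length of 1 transcript). Grik4 and Grik5 are the high-affinity subunits, which form channels only together with Grik1, Grik2 or Grik3. Grik5 was 43.3, 49.3 and 34.6 RPKM in WT and 47.3, 49.7 and 38.6 in Het, lowest in replicate 3 of both genotypes. The partners that can form channels by themselves were lower, with Grik3 at 9.36 ± 0.783, Grik2 at 6.25 ± 0.442 and Grik1 at 2.78 ± 0.111, and Grik4 was 4.51 ± 0.0936. The log2 ratio of Grik2 to Grik5 was −2.75 ± 0.307 in WT.

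Grin1 held 45.8% of the NMDA sum of 70.1 ± 1.06 RPKM, or 35.6% of counts and 62.6% by the length of 1 coding transcript (4238 bases against 9700 deposited). On counts alone Grin2b, at 36.2%, was as high as Grin1, so the place of Grin1 as the first NMDA subunit depends on the length used. Part of the exons of Grin1 (1307 bases, 13.5%) overlaps the antisense gene Grin1os, and fragments there were dropped since counting ignored strand. Grin2b, the subunit that prevails early in development and decays slowly, was 11.8, 10 and 17.1 RPKM in WT and 11.4, 12.3 and 15.5 in Het. Grin2a, the faster subunit of the adult forebrain, was 7.34, 6.12 and 6.09 in WT and 7.16, 7.37 and 6.04 in Het. Grin2b was above Grin2a in all 6 libraries, with a log2 ratio of Grin2a to Grin2b of −0.96 ± 0.458 in WT that ran from −0.683 to −1.49. Grin2c, best known from cerebellum and also found in astrocytes and thalamus, was 10.7 ± 1.86. Grin3a, which lowers calcium permeability, was 4.39 ± 0.375, Grin2d, found in interneurons and the brainstem, 3.27 ± 0.583, and the related Grin3b 0.143 ± 0.0372. Grid1, a delta subunit that binds cerebellins and acts as a synaptic organiser, was 11.7 ± 0.796.

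Among the 10 GABA-A subunits the first was Gabra3, at 34.7, 31.6 and 44.0 RPKM in WT and 31.4, 34.6 and 38.1 in Het, with 26.2% of their sum (19.9% of counts, 21.7% by the length of 1 transcript). By that last length Gabrd was slightly higher, at 22.8% against 19.6% by the deposited length. Gabrd, which serves tonic inhibition, was 29.2, 26.9 and 25.1 in WT and 34.1, 29.0 and 27.5 in Het. Gabra5, an alpha subunit of tonic inhibition in the hippocampus, followed at 21.6 ± 1.18 and Gabra4, the usual partner of Gabrd in forebrain, at 19.5 ± 1.99. Gabra2 was 6.21 ± 0.314, Gabrg1 4.30 ± 0.492 and Gabrg3 2.48 ± 0.526. The 10 genes made up 54.7% of the summed RPKM of the 19 GABA-A subunit genes in the tables, so these shares are among the listed members and not of all GABA-A receptors.

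**Figure D2:**
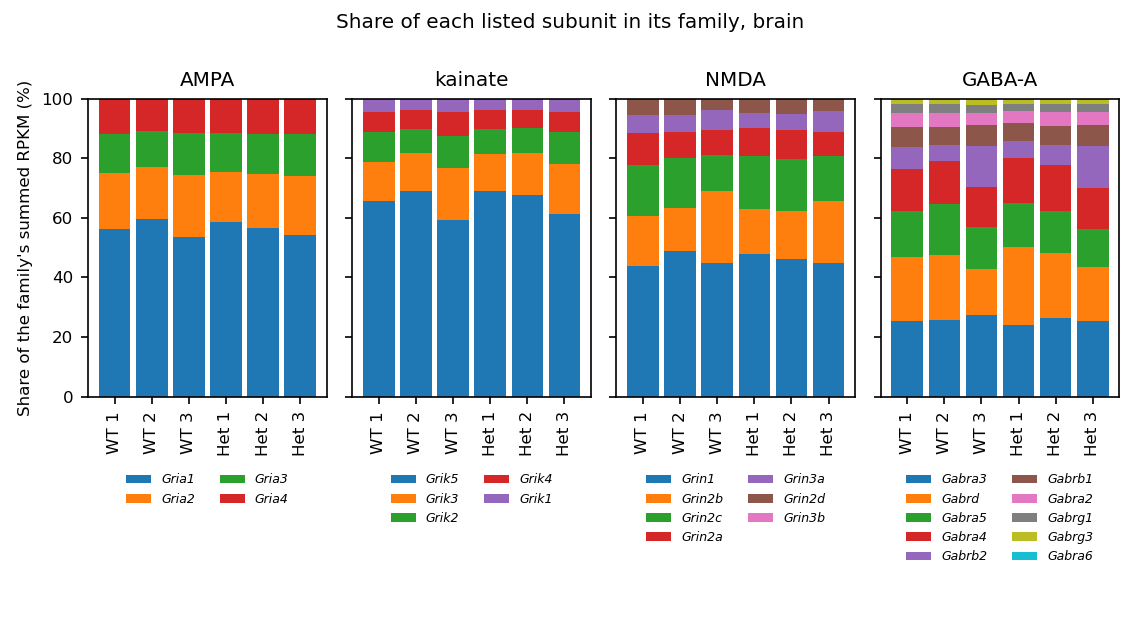
Share of each listed subunit in the summed RPKM of its family (vertical axis, percent) in each of the 6 brain libraries. Gria1, Grik5, Grin1 and Gabra3 form the lowest block of the AMPA, kainate, NMDA and GABA-A bars, with WT means of 56.5%, 64.6%, 45.8% and 26.2%.

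Gabra6, the alpha subunit of cerebellar granule cells, had RPKM of 0.0319, 0.0774 and 0.154 in WT and 0.0823, 0.0553 and 0.0313 in Het, the lowest of the 27, while its neighbour on chromosome 11, Gabrb2, was 13.0 ± 8.23. The 7 listed markers of granule cells were uneven in these libraries. Cbln3 was 0.125 to 0.325 RPKM, Fat2 0.0379 to 0.101 and Barhl1 0.0936 to 0.363. The others were higher: Cbln1 was 5.91 to 9.16, Zic1 5.01 to 8.77, Zic2 5.19 to 7.13 and Neurod1 2.44 to 2.83. How many granule cells the samples held was not tested. The list of 7 markers summed to 20 to 25.3 RPKM.

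Replicate 3 of the brain stood apart from replicates 1 and 2 in both genotypes, and for Gabrb2 by more than any other member. Gabrb2, a common beta subunit, was 10, 6.62 and 22.3 RPKM in WT and 7.51, 9.19 and 21.3 in Het. On the log2 scale replicate 3 was 1.44 above the mean of the other replicates in WT and 1.35 above it in Het, and 20 of 13748 genes (0.145%) were at or above Gabrb2 in both. Grin2b (0.65 and 0.38) and Gabrb1 (0.45 and 0.40) were also higher in replicate 3. Grik5 (−0.42 and −0.33), Grin2c (−0.45 and −0.25) and Grin2d (−0.46 and −0.22) were lower. Of the 27 members 22 deviated in the same direction in both genotypes, as did 10127 of the 13748 genes. The members with less G and C in their transcripts tended to be higher: Spearman's rho between the deviation and the G and C content of 1 coding transcript was −0.65 in WT and −0.55 in Het over the 27 genes, and −0.36 and −0.15 over 13748 genes. With the length of that transcript rho was 0.22 in WT and 0.43 in Het over the 27 genes. Over the 13748 genes it was 0.23 and 0.39. These correlations are across genes that share the same libraries. Striatal markers summed to 326 and 391 RPKM in the libraries numbered 3 and to 430 to 483 in the other 4, choroid plexus markers to 587 and 740 against 810 to 958, and hippocampal markers to 60.1 and 68.2 against 69.7 to 81. Other lists were higher in both libraries numbered 3: general neuron markers were 1120 and 1080 against 973 to 1040, hypothalamic markers 105 and 117 against 76.4 to 98.3, and olfactory bulb markers 5.27 and 6.9 against 2.03 to 4.3. The part of these differences in the subunit levels was not tested.

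Between genotypes in brain, no member passed edgeR's test after adjustment over the 19166 genes tested, where 0.0157% of all genes did. All 27 members were tested. Their fold changes (Het over WT) were 16 above 0 and 11 below it, 19 were within 1 SE of 0, and their median log2 fold change was 0.00339 beside −0.00426 over all genes. One member, Gabra5, had an unadjusted p under 0.05, as did 2.96% of all genes. Gabra5 was 20.8, 21 and 23 RPKM in WT and 19.3, 18.5 and 19.0 in Het, so that every Het library lay below every WT library, as for 4.1% of all genes. No member had every Het library above every WT library, as 3.73% of all genes did. The log2 fold change of Gabra5 was −0.19 with an SE of 0.06 (adjusted p = 1 in edgeR's quasi-likelihood test).

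The samples of the same number deviated together in brain, so the fit with the replicate number as a block is given beside this one. It also called none of the 27 members, but 22 genes in all, and put 4 members at an unadjusted p under 0.05, as it did 6.69% of all genes. Those were Grin2c, Gabra5, Gabrg1 and Gabrd, and none had an adjusted p below 0.195. In that fit Grin2c, the slow-gating NMDA subunit with low magnesium block, had a log2 fold change of 0.27 with an SE of 0.06 (adjusted p = 0.195, edgeR). Its values were 11.8, 11.8 and 8.59 RPKM in WT and 13.6, 13.5 and 11.4 in Het, and within each number the Het library was the higher one. Gabrg1, a gamma subunit of low benzodiazepine sensitivity, was 4.40, 3.76 and 4.73 in WT and 3.25, 3.6 and 4.04 in Het, lower in Het within each number, with a log2 fold change of −0.24 (adjusted p = 0.44 with the block). Gabrd was 0.15 higher on that scale (adjusted p = 0.575). Gabrb2, the member with the widest spread, had a log2 fold change of −0.03 with an SE of 0.50 without the block and of −0.00303 with an SE of 0.12 with it.

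**Figure D3:**
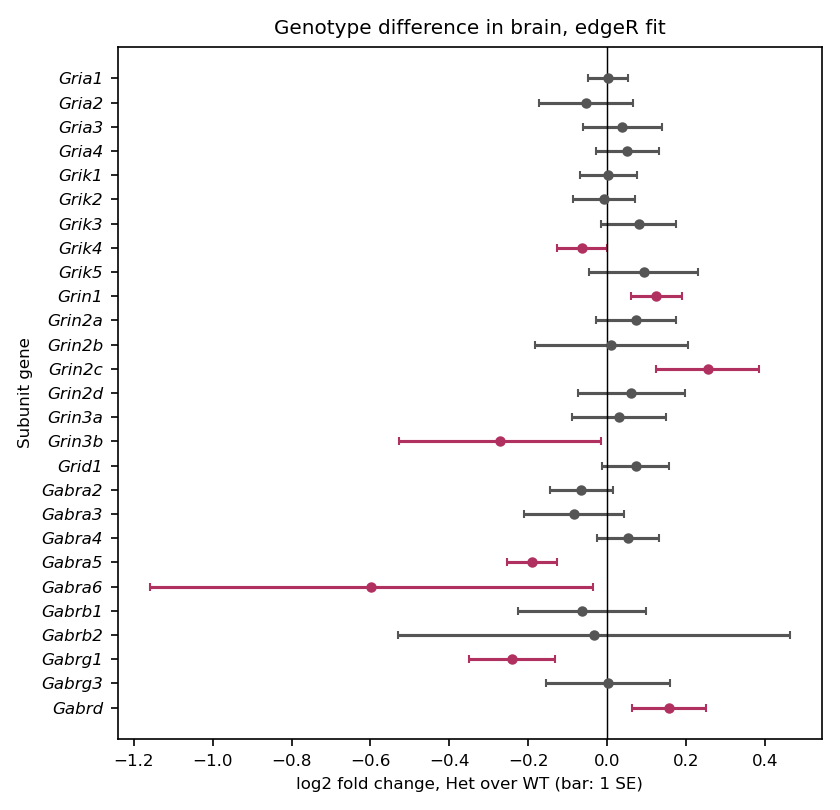
Log2 fold change, Het over WT, of each subunit gene in brain with 1 SE from edgeR's fit of 6 libraries, coloured where the change is at least 1 SE from 0. The changes lie near 0 for 19 of 27 genes, and Gabra5, at −0.19 with an SE of 0.06, does not pass the adjusted threshold.

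No measure of subunit balance separated the genotypes past the threshold of an exact permutation test over the samples, where 3 against 3 cannot give a two-sided p below 0.1. The test exchanged the libraries freely and did not use the replicate number, so the shared deviation of replicate 3 counted as spread. The log2 ratio of Gria1 to Gria2 was 1.58 ± 0.21 in WT and 1.63 ± 0.16 in Het (SD, n = 3, exact p = 0.8). That of Grin2a to Grin2b was −0.96 ± 0.458 and −0.922 ± 0.378 (exact p = 0.8, n = 3). Gabra2 to Gabra5 was −1.8 ± 0.0586 in WT and −1.68 ± 0.138 in Het (exact p = 0.3, n = 3), and the ratios of Grik2 to Grik5 and of Gabrb1 to Gabrb2 had exact p-values of 0.9 and 0.8. Of the 4 family sums, those of AMPA, kainate and GABA-A subunits overlapped between genotypes. The NMDA sum did not: it was 69.2, 70.0 and 71.3 RPKM in WT and 75.7, 76.7 and 74.9 in Het, a difference of 5.64 (exact p = 0.1, the smallest this design allows, and 0.9 adjusted over the 9 measures compared). Grin1, with 30.2, 34.2 and 32.0 in WT and 36.2, 35.4 and 33.6 in Het, and Grin2c made up most of that difference. The share of each subunit in its family was compared in the same way. That of Gabrg1 did not overlap, at 3.23%, 3.06% and 2.93% in WT and 2.48%, 2.73% and 2.69% in Het. Its exact p was 0.1, and 0.99 adjusted over all the shares. No other share had an exact p below 0.2. Markers of thalamic neurons also did not overlap, at 16.3 to 19.1 RPKM in WT and 24.0 to 27.2 in Het over 3 genes, and their part in the NMDA values was not tested.

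None of the partner genes of these receptors was called in brain either. In 5 lists, 0 of 13 auxiliary subunits of AMPA and kainate receptors, 0 of 18 scaffolds of the excitatory synapse, 0 of 7 proteins of the inhibitory synapse, 0 of 9 metabotropic glutamate and GABA-B receptors and 0 of 14 genes of transmitter synthesis and transport passed, and none of these had an unadjusted p under 0.05. Of all genes tested in brain 0.0157% passed and 2.96% had an unadjusted p under 0.05, so for lists this small the zeros say little. The list medians ranged from 0.00548 to 0.0781 on the log2 scale. The smallest p belonged to Shank3, a scaffold that links NMDA and AMPA receptor complexes to actin, at 0.14 on the log2 scale with an SE of 0.06 (adjusted p = 1, edgeR). It was 218 ± 11 CPM in WT and 241 ± 12 in Het, without overlap. Cacng2 (stargazin), which carries AMPA receptors to the synapse, was 80.6 ± 5 and 87.7 ± 2.56 CPM, and Slc1a3, the glial glutamate transporter GLAST, 722 ± 26.2 and 680 ± 34.3.

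Outside brain most subunits were scarce. In the 15 WT libraries 26 members could be tested, and 25 of them (96.2%) were higher in brain than in each of the other 4 tissues with an adjusted p under 0.05 in every contrast, as were 19.6% of the 22933 genes tested. Scaling moved all genes against total counts by −1.09 in the contrast with liver, −1.16 with muscle, −0.19 with kidney and 0.04 with spleen on the log2 scale, and the count of 25 stayed the same under total counts. Gria1 had 0 counts in all 3 WT spleen libraries and in all 3 WT muscle libraries, against 462 CPM in WT brain, so its level in brain was at least 13500-fold higher than in spleen and at least 6380-fold higher than in muscle on the scale of the fit, with a floor of 3 counts per library. Under total counts these bounds were 12900 and 15400. Grin1, the obligatory NMDA subunit, was likewise at 0 in WT spleen (at least 9080-fold higher in brain, or 8730 under total counts). In spleen 10 of the 27 members had no count in any of the 6 libraries, among them Gria1, Gria4, Grin2b, Gabra5 and Gabrb2. Muscle had 3 such members (Gabra5, Gabra6 and Gabrg3) and kidney 1 (Gabra6).

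**Figure D4:**
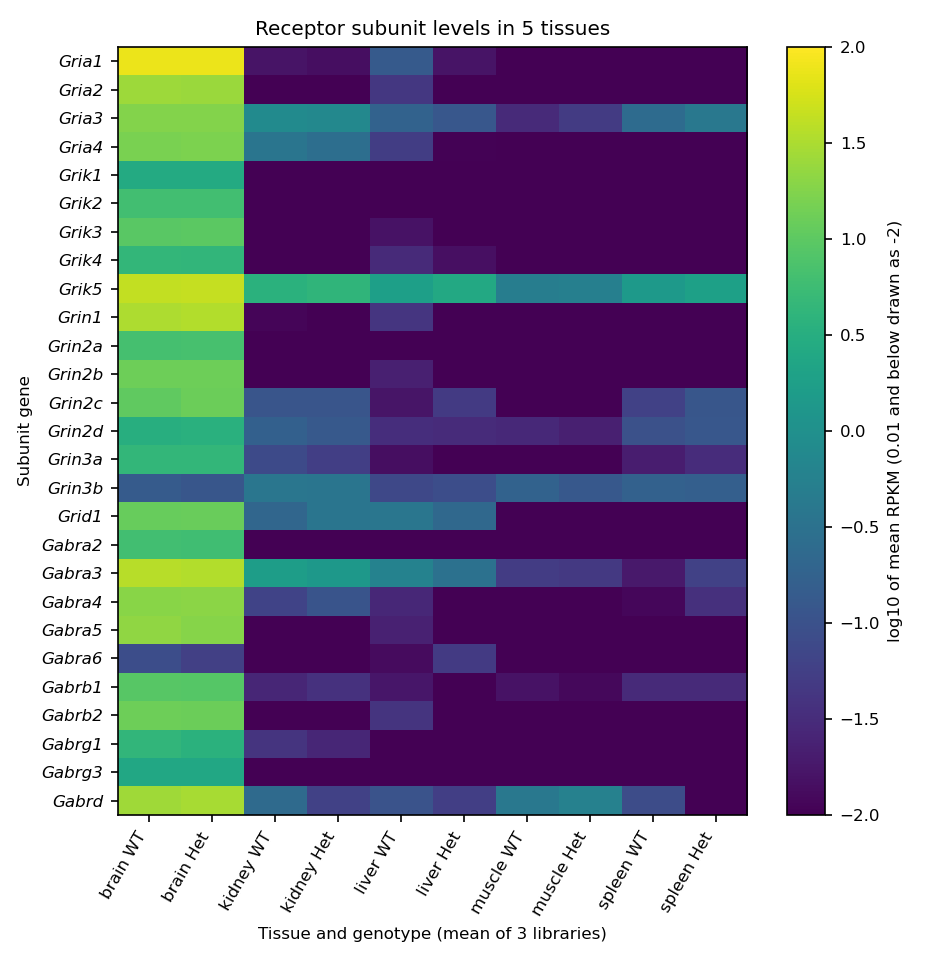
Mean RPKM of each subunit gene (rows) in each tissue and genotype (columns, 3 libraries each) on a log10 colour scale, with values of 0.01 and below drawn alike. Outside brain the brightest row is Grik5, followed by Gria3 and Gabra3 in kidney, and Grin3b is the row that is not brightest in brain.

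Kidney held the most members: 15 of 27 had more than 3 counts in all 6 libraries, against 7 each in liver, muscle and spleen. Gria3, Grik5, Grin2d and Grin3b passed this mark in all 4 tissues. Grik5 was the highest of them, with WT levels of 3.6 ± 0.0924 RPKM in kidney, 1.78 ± 0.123 in liver, 1.47 in spleen and 0.492 in muscle. In the fit it was 11-fold higher in brain than in kidney, 11.4-fold higher than in liver, 30.7-fold than in spleen and 36-fold than in muscle, the smallest gap of the 25 in 3 of the 4 tissues. In muscle the smallest gap was that of Gabrd, 28-fold. Gabra3 was 1.71 ± 0.172 RPKM in kidney and 0.598 ± 0.184 in liver but had only 3 to 9 counts in WT spleen. Gria3, the X-linked AMPA subunit, was 0.712, 0.961 and 0.817 in WT kidney and 0.223, 0.219 and 0.322 in WT spleen, and Gria4 was 0.344, 0.359 and 0.391 in WT kidney. The partners that Grik5 needs to form a channel were near the floor there: Grik1, Grik2 and Grik3 each had a mean below 0.01 RPKM in WT kidney.

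Grin3b and Gabra6 were the exceptions to the brain pattern. Grin3b, an NMDA subunit known from motor neurons, was 0.178, 0.146 and 0.104 RPKM in WT brain, and 0.353, 0.352 and 0.395 in WT kidney. Its log2 fold change, brain over kidney, was −1.45 (SE 0.35, adjusted p = 0.00189, edgeR), and 36% of all genes were likewise lower in brain. Brain over muscle it was −1.60 (SE 0.36, adjusted p = 0.000955, edgeR), and 32.5% of all genes were lower in brain. Under total counts the difference from muscle was −0.33 (adjusted p = 0.398). The differences from liver (−0.08) and spleen (−0.17) did not pass, while 33.3% and 37% of all genes were lower in brain than in those tissues. Of the exon bases of Grin3b, 1059 (32.1%) overlap Tmem259 on the opposite strand, and fragments there were dropped since counting ignored strand. Its RPKM still divides by the full deposited length. The strand of the fragments counted near that gene is not known. Gabra6 failed the filter on low counts in this fit. It had 5 to 19 counts in the brain libraries and 0 to 17 in the liver libraries, the highest of them in Het replicate 3.

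One liver library carried a trace of brain transcripts. In WT replicate 3, 20 of the 27 members had their highest count of the 6 liver libraries. Gria1 had 146 counts there and 2 to 10 in the other 5, Gria2 124 and 2 to 9, Grin2b 100 and 1 to 9, and Grin1 70 and 2 to 5. The median member stood at 0.518% of its level in WT brain in CPM scaled within each tissue. Neuron markers moved with them: Snap25, a protein of vesicle fusion, had 690 counts against 21 to 55, and the 7 markers were at 0.391% to 1.44% of WT brain. The top of that range was Syt1, with 1258 counts there and 769 to 1074 in the other 5, so most of its level was found in every liver library. Rbfox3 had 122 counts against 37 to 63. Liver levels and counts in this text include this library. The liver changes between genotypes of Grik5, Gabra3, Gria4 and Gabrd are also given without it. The 25 members that were higher in brain numbered 25 also when it was left out.

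In the other tissues, as in brain, no member was called between genotypes by edgeR after adjustment, but fewer could be tested there. In kidney 14 members were tested and 0 called (0.0211% of all genes were), with 4 at an unadjusted p under 0.05 (6.44% of all genes). In liver it was 0 of 9 (0.0193%) with 4 unadjusted (4.56%), for muscle 0 of 7 (0.0249%) with 0 unadjusted (6.45%), and for spleen 0 of 9 (0.242%) with 1 unadjusted (3.52%). Members with every Het library above every WT library numbered 4 for kidney (6.15% of all genes), 2 for liver (4.68%), 1 for muscle (5.91%) and 0 for spleen (4.35%). Members with every Het library below numbered 1 for kidney (5.28%), 2 for liver (4.31%), 0 for muscle (6.28%) and 1 for spleen (2.29%). With these few members tested, the shares say little. Grik5 was 3.56, 3.71 and 3.54 RPKM in WT kidney and 4.05, 4.29 and 4.15 in Het kidney, without overlap (log2 fold change 0.21, SE 0.08, adjusted p = 0.692, edgeR). In liver it was 1.89, 1.65 and 1.80 in WT and 2.59, 3.02 and 2.06 in Het, again without overlap (0.52, SE 0.17, adjusted p = 0.857). The difference in Grik5 was as large without liver WT replicate 3 (0.53).

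Grid1 in kidney was 0.182, 0.214 and 0.234 RPKM in WT and 0.478, 0.291 and 0.307 in Het (log2 fold change 0.77, adjusted p = 0.564, edgeR), and Gabra4 0.0690, 0.0630 and 0.0619 against 0.125, 0.0984 and 0.108 (0.77, adjusted p = 0.54). Both were without overlap and neither was called. Some marker lists also differed in kidney. The 4 markers of peripheral neurons summed to 4.62 to 5.54 RPKM in WT and 7.41 to 15.4 in Het. The 4 genes listed for Purkinje cells summed to 96.6 to 101 in WT kidney and 134 to 176 in Het kidney. In brain they summed to only 59.6 to 71.6 RPKM, so in kidney they do not mark those cells. The 7 general neuron markers overlapped (0.668 to 0.703 and 0.401 to 0.821). The part of these lists in the values of Grik5, Grid1 and Gabra4 was not tested. In liver Gabra3 was 0.583, 0.421 and 0.789 in WT and 0.266, 0.330 and 0.340 in Het (−0.94, adjusted p = 0.792; −0.69 without WT replicate 3). Gria4 in liver was 0.0328, 0.0303 and 0.0961 in WT against 0.0129, 0.0107 and 0.00847 in Het. Its log2 fold change of −2.26 (adjusted p = 0.637) became −1.51 (adjusted p = 0.35) without the WT library that held the brain transcripts. In a single fit of all 30 libraries, with that library included, Gria4 passed (−2.23, adjusted p = 0.0454). These rest on 3 to 37 counts a library. In liver the neuron markers summed to 2.1 to 6.63 RPKM in WT and 1.66 to 2.09 in Het. The value of 6.63 was that of WT replicate 3, and the other liver libraries reached at most 2.17. The 3 endothelial markers summed to 15.7 to 16.6 in WT and 8.96 to 12.9 in Het. The part of these lists was not tested.

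Gabrd was the one member whose genotype effect passed a test of difference between tissues. A test of the interaction of genotype and tissue over all 30 libraries called 1 of 27 members, Gabrd (F = 9.02, adjusted p = 0.0257, edgeR), where 0.758% of 24262 genes were called. In it 11 members had an unadjusted p under 0.05 (6.66% of all genes). Without the liver library that held brain transcripts 5 members did, and in the other alternative fits 4 to 15. The share of all genes was not taken in those fits, so these counts say nothing about the members in particular. In kidney Gabrd had 48, 47 and 105 counts in WT and 25, 13 and 10 in Het, and in spleen 12, 26 and 24 against 0, 4 and 2. In muscle it had 117, 132 and 98 counts in WT and 141, 194 and 124 in Het. The Het libraries thus lay below the WT libraries in kidney and spleen and, in RPKM, above them in muscle (0.391, 0.445 and 0.374 against 0.484, 0.777 and 0.461). Markers of other tissues separated the same spleen libraries: the 4 liver markers summed to 14.9 to 19.2 RPKM in WT and 0.0317 to 0.146 in Het, the 5 kidney markers to 0.0346 to 0.123 in WT and 10.8 to 22.8 in Het, and the 4 choroid plexus markers to 1.33 to 1.84 and 0.127 to 0.453. In muscle the kidney markers summed to 8.72 to 71.6 in WT and 0 to 4.57 in Het. Their part in the counts of Gabrd was not tested.

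The log2 fold changes of Gabrd were −2.01 in kidney (SE 0.45, adjusted p = 0.341, edgeR), −3.31 in spleen (SE 0.82, adjusted p = 0.542), 0.51 in muscle (SE 0.25, adjusted p = 0.831) and 0.16 in brain. In liver the value was −0.92 and turned to 0.36 without WT replicate 3, which held 40 of the Gabrd counts against 3 to 13 in the other libraries. DESeq2 called Gabrd in kidney (−2.02, adjusted p = 0.0102) and in spleen (−3.40, adjusted p = 0.0327), and the fit of all 30 libraries in spleen (−3.35, adjusted p = 0.0255). The interaction missed the threshold under total counts (adjusted p = 0.0507) and with the replicate number as a block (0.0693). Without WT replicate 2, Het replicate 1, Het replicate 2 or Het replicate 3 of all tissues its adjusted p was 0.174, 0.174, 0.191 and 0.194, and without the liver library that held brain transcripts 0.00409. In the fit without Het replicate 3 another member, Gabra3, was called (adjusted p = 0.0147, against 0.13 with all libraries).

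Beside Gabrd lies the gene model 5830444B04Rik, looked at after its values were seen. Gabrd spans 155384980 to 155398112 of chromosome 4 on the minus strand, and 5830444B04Rik spans 155398763 to 155421704 on the same strand, 651 bases upstream of Gabrd, with no shared exon. In kidney it had 156, 286 and 273 counts in WT and 3, 3 and 5 in Het, and fell (adjusted p = 0.00121, edgeR). In muscle it fell from 76, 90 and 80 counts to 11, 10 and 10 (adjusted p = 0.0334). In spleen it had 290, 923 and 544 counts in WT and 40, 65 and 91 in Het (adjusted p = 0.0933), and in brain 1.59 ± 0.302 CPM in WT and 1.20 ± 0.0409 in Het, without overlap and not called (adjusted p = 1). In liver it had 6, 44 and 52 counts in WT and 0, 0 and 7 in Het and failed the filter on low counts. Cfap74, a gene of the ciliary axoneme that overlaps this model on the opposite strand, was 0.608 ± 0.197 CPM in WT kidney and 0.164 ± 0.0459 in Het (adjusted p = 0.217). In spleen Cfap74 had 154, 660 and 419 counts in WT and 57, 29 and 80 in Het (adjusted p = 0.139). Every Het library was thus below every WT library in kidney and spleen for both genes, and in muscle and brain for the gene model but not for Gabrd. In liver both overlapped. Whether fragments of 1 gene reached the count of the other was not tested.

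**Figure D5:**
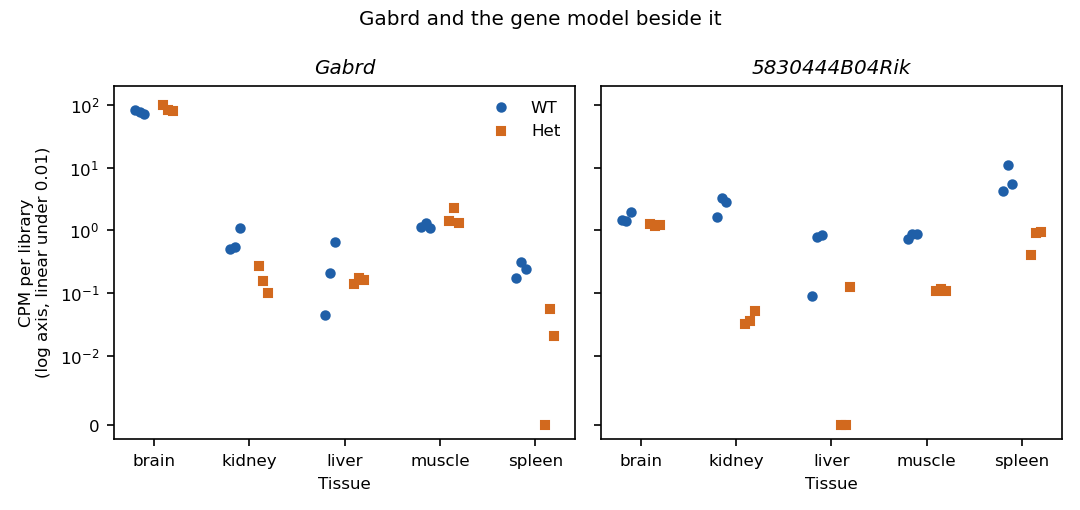
CPM per library of Gabrd and of 5830444B04Rik in 5 tissues, with WT as circles and Het as squares, on a log axis that is linear under 0.01. In kidney and spleen the Het libraries lie below the WT libraries for both genes, and in muscle and brain for 5830444B04Rik only.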

How the data were processed

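Each tissue's deposited table gives raw counts of fragments in the exons of a gene. Per the file headers, the authors ran featureCounts 1.5.0-p3 with the annotation of Ensembl release 86 (GRCm38). Strand was ignored, and fragments aligned to several places or overlapping several genes were not counted. STAR and DESeq2 are named in the submitters' processing notes, with no version. The tables' length column was used as deposited.

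Members, gene lists and tests were chosen with earlier results of these data known. All 27 members were reported. Genes were filtered with filterByExpr and scaled by TMM, and Het was tested against WT within each tissue by edgeR 4.0.16's quasi-likelihood test (R 4.3.3, 6 libraries a tissue, Benjamini-Hochberg over all genes tested, threshold 0.05). Tissues were compared in the 15 WT libraries, and the interaction in all 30. Ratios, sums and shares were compared by exact permutation, two-sided. GENCODE M21 gave coding transcript lengths. Named partner genes were the called ones or, if none, up to 3 of a list with the smallest p. The genotype fit was tried on simulated data with changes in genes of high counts only and no replicate effect. That trial does not cover scarce members. No library was merged: the chi-square of counts per degree of freedom was 15.4 to 640 in 30 replicate pairs. In brain the deviations of same-numbered samples correlated at 0.34, 0.56 and 0.70 and in kidney at 0.304, 0.258 and 0.243, so numbers were judged to be pairs there. They were not in liver (0.0285, 0.116 and 0.28), muscle (0.0775, 0.384 and 0.494) and spleen (−0.569, −0.162 and 0.42), though the muscle values reached above those of kidney. The main fits used no pairs in any tissue, kidney included. With the replicate block 21 genes were called in kidney and 118 in muscle, with 0 members in each. p-values measure the spread between these samples. DESeq2 1.42.0, other scalings and filters, the block and leaving out libraries were alternatives.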

Additional observations from a re-analysis of the deposited data

Results flagged for a closer look

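The genotype effect on Gabrd differed between the 5 tissues by a test of the interaction (adjusted p = 0.0257, edgeR), with log2 fold changes of −2.01 in kidney, −3.31 in spleen, 0.51 in muscle, 0.16 in brain and −0.92 in liver (0.36 without liver WT replicate 3). The call was lost with the replicate block (0.0693), under total counts (0.0507) and in 4 of the 6 fits that each left out 1 replicate of a genotype in all tissues (0.174 to 0.194).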

How the results depend on the processing

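The number of members called between genotypes stayed 0 in 62 of 66 fits over the 5 tissues. The exceptions were 1 member in kidney with DESeq2 (Gabrd), 1 in liver in the fit of all 30 libraries (Gria4), and 1 in spleen with each of these (Gabrd). The members higher in brain numbered 25 or 26 under every alternative. The count of members whose genotype effect differed between tissues fell from 1 to 0 under total counts and with the replicate block, and was 0 or 1 with a replicate left out. The replicate block changed no other call. The NMDA sum (Het minus WT, 5.16 to 6.21 RPKM) and the log2 ratio of Gabra2 to Gabra5 (0.0633 to 0.197) kept their direction with each library left out. The other ratios and sums overlapped between genotypes and turned with single libraries left out: Gria1 to Gria2 ran from −0.0528 to 0.157, Grik2 to Grik5 from −0.273 to 0.03, Grin2a to Grin2b from −0.227 to 0.255 and Gabrb1 to Gabrb2 from −0.386 to 0.264. The RPKM sums ran from −3.5 to 4.45 (AMPA), −0.379 to 6.26 (kainate) and −11.3 to 8.07 (GABA-A). Under total counts the AMPA sum was −0.161. Without replicate 3 of both genotypes, an alternative chosen after seeing the data, Grin2a to Grin2b was −0.00937, the GABA-A sum 1.72 and Gabra6 0.232. The log2 fold change of Grik4 in brain was 0.00368 in the fit of all 30 libraries, and that of Gabrd in liver ran from −1.44 to 0.359 with a library left out. Shares of Gria1, Grik5, Grin1 and Gabra3 were 40.8%, 54.6%, 35.6% and 19.9% of counts, and 48.6%, 70.4%, 62.6% and 21.7% by the length of 1 coding transcript, also added after seeing the data; in both cases the divisor is what changed. The cause of the other changes was not tested. Among 37 results on single members, 456 of 464 values kept their direction and side of the threshold. These were the changes between genotypes of at least 1 SE in the main fits, and Grin3b in brain against kidney and muscle. Changes within 1 SE of 0 were left out, and none of the changes between genotypes was called in the main fits. Stability of direction and call was thus partly set by this choice. DESeq2 called more genes than edgeR, with 28 against 3 in brain, 176 against 4 in kidney, 68 against 3 in liver, 185 against 4 in muscle and 189 against 45 in spleen, and no further member. Genes with few counts outside brain limit what could be detected there.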
